A study of Mus musculus with 15 samples.

Results

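The genes described here are Tmlhe and Vamp7, followed across the development of the mouse liver. Their probes were chosen by RefSeq accession, NM_138758 for Tmlhe and NM_011515 for Vamp7, and by the mean processed signal over 15 arrays where a gene had several. Each gene had 1 probe, so signal decided nothing in the end. The mean processed signal was 604.2 for Tmlhe and 5952 for Vamp7. The 2 genes are part of 112 with a gene symbol, on an array of 59709 probes. Probes differ in how strongly they bind, so the level of Tmlhe is not set against that of Vamp7 below.

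Tmlhe encodes trimethyllysine hydroxylase, the mitochondrial enzyme that starts the synthesis of carnitine from trimethyllysine set free when proteins are broken down. Carnitine carries long-chain fatty acids into mitochondria, where they are oxidised, and the liver is among the organs that make it. Vamp7 encodes a SNARE protein of the vesicle side, also called tetanus-insensitive VAMP. SNAREs on a vesicle pair with SNAREs on its target membrane and drive the fusion of both membranes, and VAMP7 does so for late endosomes, lysosomes and the secretory vesicles that derive from them.

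Livers of C57BL/6 mice, an inbred strain, were sampled at the embryonic stages E12.5, E14.5 and E17.5 (days of gestation), in newborns (neonatal, with no day given) and in adults of 8 weeks, with no treatment or altered genotype named. Each stage had 3 arrays, 15 in all. The labels do not say whether these came from separate animals or pooled litters, so the spread behind each p-value is that between arrays and may be technical alone. The question the design puts is how transcript levels change along this course. RNA was taken from whole liver, so fewer cells of a type and less RNA per cell cannot be told apart.

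The arrays carry 2 scan times in their headers, taken here as slides 1 and 2. Arrays said below to share a slide are thus known only to share a scan time. Slide 2 held E17.5 replicate 3 with all neonatal and adult arrays, and slide 1 held the rest. Fetal and later livers can therefore be compared within a slide only through E17.5 replicate 3. On E17.5 replicate 1, 55.8% of the negative-control spots were well above background, against 4 to 9.58% on the other 14 arrays. Both members were well above background and unsaturated on all 15 arrays. The Tmlhe signal was 5.87 to 53.2 times the 95th percentile of the negative-control spots of its array, and that of Vamp7 57.3 to 454 times, the lowest of each on E17.5 replicate 1. The scanner software put the error of a single spot at 10 to 10.3% of the signal for Tmlhe and at 10% for Vamp7.

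Tmlhe was low in the fetal liver, intermediate in neonatal and highest in adult liver, in values not adjusted for the slide. Its processed signals, on a linear scale and before any scaling between arrays, were 205.8, 470.6 and 314.5 at E12.5 in replicate order, and 317.7, 346.2 and 418.7 at E14.5. They were 417.6, 279.4 and 514.4 at E17.5. Neonatal liver gave 869.6, 549.7 and 718.1, and adult liver 1300, 1410 and 930. Every neonatal signal lay above every fetal one, and every adult signal above every neonatal one, already before scaling. The share of all features that separate in this way was not counted.

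For comparison between arrays, levels were expressed as log2 signal minus the 75th percentile of log2 signals on the same array. On this scale Tmlhe stood at 0.42 ± 0.29 (SD, n = 3) at E12.5 and 0.36 ± 0.19 (SD, n = 3) at E14.5. At E17.5 it stood at 0.79 ± 0.50 (SD, n = 3), where replicates 1 and 2 were at 0.52 and 0.48 and replicate 3, on the other slide, at 1.37. Neonatal liver had 2.03, 1.29 and 1.57, a mean of 1.63 ± 0.38 (SD, n = 3). Adult liver had 3.01, 2.60 and 2.68, a mean of 2.76 ± 0.21 (SD, n = 3). Scaling thus kept the 3 adult arrays above all others, but E17.5 replicate 3 then lay within the neonatal range.

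Vamp7 had overlapping levels from E12.5 to neonatal liver and stood higher in adult liver, in values not adjusted for the slide. Its processed signals were 5667, 6644 and 4399 at E12.5, and 5004, 6333 and 5495 at E14.5. They were 4082, 3702 and 5896 at E17.5. Neonatal liver gave 4695, 3669 and 4948, and adult liver 9663, 12480 and 6607. Before scaling, adult replicate 3 lay within the E12.5 range, and the other adult arrays lay above all of the earlier ones.

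On the scaled log2 level, Vamp7 was at 5.20, 4.53 and 3.93 at E12.5, the widest spread of any stage (mean 4.55 ± 0.63, SD, n = 3), and at 4.32 ± 0.07 (SD, n = 3) at E14.5. At E17.5 the arrays had 3.81, 4.21 and 4.89 (mean 4.30 ± 0.54, SD, n = 3), with replicate 3 on the other slide again the highest. Neonatal liver had 4.28 ± 0.23 (SD, n = 3). Adult liver had 5.90, 5.75 and 5.51 (mean 5.72 ± 0.20, SD, n = 3), and all 3 values lay above those of the 12 earlier arrays, the nearest being E12.5 replicate 1. The share of all features for which this holds was not counted.

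**Figure D1:**
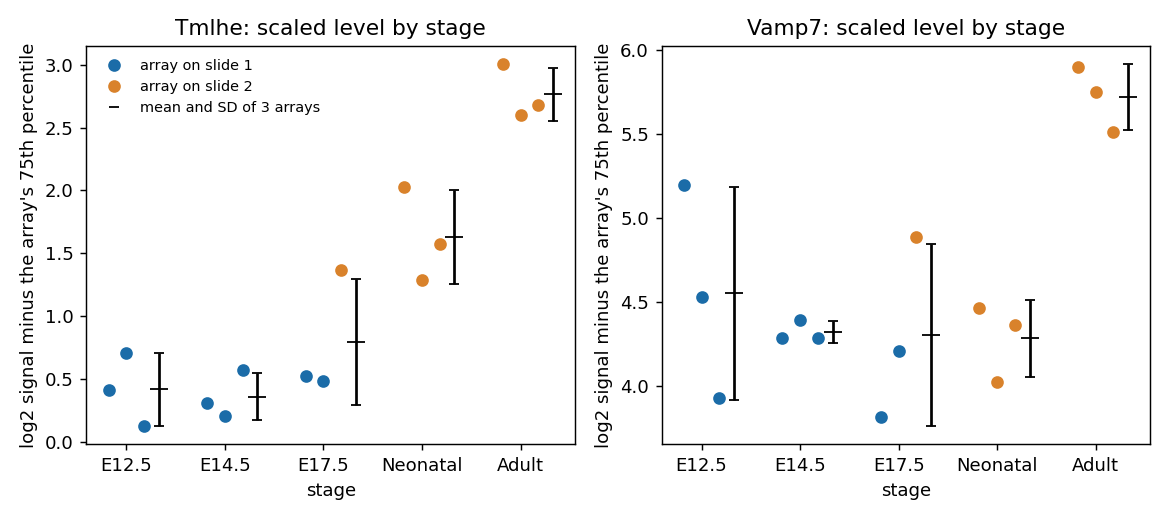
Scaled log2 level of Tmlhe (left) and Vamp7 (right) on each of the 15 arrays by stage, in replicate order, coloured by slide, with the mean and SD of the 3 arrays beside them; the 2 vertical axes have different ranges. In these values, not adjusted for the slide, Tmlhe was higher at the neonatal stage (mean 1.63) than at E12.5 (0.42) and highest in adult liver (2.76). Vamp7 means lay between 4.28 and 4.55 from E12.5 to neonatal liver and at 5.72 in adult liver.

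Changes between stages were tested with limma over 37357 features, those for which 1 stage or more had all its arrays well above background. A change was called at a Benjamini-Hochberg adjusted p below 0.05, and each difference is given on the log2 scale with its standard error (SE). Over all 5 stages both genes were called by the moderated F test, Tmlhe with F = 24.3 (adjusted p = 3.38e-05) and Vamp7 with F = 7.06 (adjusted p = 0.00644). The same test called 61% of all features, so these calls do not set either gene apart. The residual SD within stages was 0.33 for Tmlhe and 0.40 for Vamp7, against a median of 0.44 over all features.

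Neither gene was called at the fetal steps. From E12.5 to E14.5 Tmlhe differed by −0.06 ± 0.29 (SE; 95% confidence interval −0.68 to 0.57) and Vamp7 by −0.23 ± 0.33 (−0.94 to 0.47), with adjusted p of 0.965 and 0.832. All 6 arrays lay on slide 1, and at this step 4.93% of features were called. From E14.5 to E17.5, where 7.11% were called, Tmlhe differed by 0.43 ± 0.29 (−0.19 to 1.06, adjusted p = 0.401) and Vamp7 by −0.02 ± 0.33 (−0.72 to 0.69, adjusted p = 0.984). Within slide 1, where E17.5 had 2 arrays, these differences were 0.14 and −0.31. With 3 arrays a stage, fetal differences as large as the ends of these intervals were not excluded.

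From E17.5 to neonatal liver, Tmlhe differed by 0.84 ± 0.29 (SE), a 1.79-fold difference that missed the threshold (adjusted p = 0.0611), while 18.1% of features were called in either direction. Its size depended on E17.5 replicate 3: the difference was 1.13 without that array (adjusted p = 0.00606, called) and 0.26 against that array alone within slide 2 (adjusted p = 0.775). The value of 1.13 rested on E17.5 replicates 1 and 2, of which replicate 1 had the raised negative controls. Without replicate 1 the difference was 0.70 (adjusted p = 0.175), and without replicate 2 it was 0.68 (adjusted p = 0.215), neither called. The adjusted p ranged from 0.00606 to 0.81 over the alternatives of this comparison. Stage and slide cannot be told apart here beyond that array. Vamp7 differed by −0.02 ± 0.33 (adjusted p = 0.972), and by −0.61 within slide 2 (adjusted p = 0.325; range over its alternatives 0.325 to 0.983).

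Between neonatal and adult liver, all 6 arrays of which lay on slide 2, both genes rose. Tmlhe rose 2.20-fold (1.14 ± 0.29 on the log2 scale, SE, adjusted p = 0.0111), with every adult array above every neonatal one. Vamp7 rose 2.71-fold (1.44 ± 0.33, adjusted p = 0.00531), again without overlap. Earlier results of these data, that rise among them, were already known when both genes were chosen. The adjusted p of either gene at this step, and its place among all features, cannot be taken as independent of that choice. At this step 25.9% of features were called in either direction and the median feature rose by 0.17, so Tmlhe stood 0.97 and Vamp7 1.27 above the median. A larger rise was measured for 11.1% of features in the case of Tmlhe and 6.61% in that of Vamp7. The share of all features with every adult array above every neonatal one was not counted. The Tmlhe call was lost without neonatal replicate 2, its lowest neonatal array (0.96, adjusted p = 0.0586; range over its alternatives 0.00265 to 0.0586). That of Vamp7 held under each of its 14 alternatives, with adjusted p from 0.000968 to 0.0288. For both genes, the slide block and slide 2 alone could not change the size of this difference, since all 6 arrays shared that slide.

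Over the whole course, from E12.5 to adult liver, Tmlhe rose 5.10-fold (2.35 ± 0.29, adjusted p = 1.46e-05) and Vamp7 2.25-fold (1.17 ± 0.33, adjusted p = 0.00862). At this distance 50.8% of features were called in either direction. These stages share no slide. With the slide as a block, an estimate that passes through E17.5 replicate 3, Tmlhe still rose, by 1.48 (adjusted p = 0.0188; range over its alternatives 1.01e-06 to 0.0188). Vamp7 was then at 0.29 and no longer called (adjusted p = 0.696; range 0.0016 to 0.696). Its E12.5 level rested on a wide spread: without E12.5 replicate 1 the difference was 1.49, and without E12.5 replicate 3 it was 0.86.

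**Figure D2:**
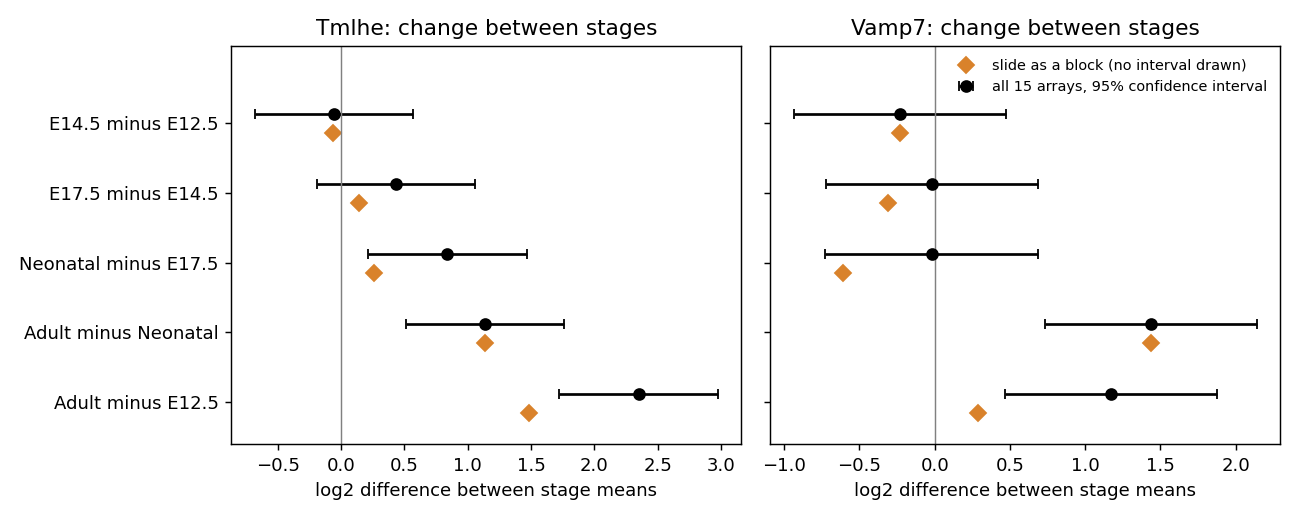
Log2 difference between stage means for Tmlhe (left) and Vamp7 (right): black points with 95% confidence intervals come from the fit over all 15 arrays, and orange diamonds from the fit with the slide as a block. The neonatal to adult differences, 1.14 and 1.44, come from arrays that all lie on slide 2, so the block could not change them. Adult minus E12.5 moved from 2.35 to 1.48 for Tmlhe and from 1.17 to 0.29 for Vamp7.

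Ordered by level, the stages ran E14.5, E12.5, E17.5, neonatal, adult for Tmlhe. The first 3 did not differ beyond their spread: E17.5 stood 0.38 ± 0.29 (SE) above E12.5 (adjusted p = 0.41; 17% of features called), and E17.5 and neonatal liver overlapped through E17.5 replicate 3. Neonatal liver stood above E12.5 by 1.22 ± 0.29 (adjusted p = 0.00462) and above E14.5 by 1.27 ± 0.29 (adjusted p = 0.00334), where 41.9% and 43% of features were called in either direction. With the slide as a block these 2 differences were 0.35 (adjusted p = 0.644) and 0.41 (adjusted p = 0.601), neither of them called. Adjusted p ranged from 0.00166 to 0.644 for the first and from 0.000877 to 0.601 for the second over their alternatives. For Vamp7 the order was neonatal, E17.5, E14.5, E12.5, adult, with the means of the first 4 within 0.27 of each other and their ranges overlapping. With the slide as a block, neonatal Vamp7 stood at −1.14 against E12.5 (adjusted p = 0.166; range over its alternatives 0.166 to 0.906) and at −0.91 against E14.5 (adjusted p = 0.287; range 0.287 to 1). These were −0.27 and −0.04 without the block. The flat course of Vamp7 from E12.5 to neonatal liver thus depended on leaving the slide out, though no difference was called either way.

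Adult liver was also above E17.5, by 1.97 ± 0.29 for Tmlhe (adjusted p = 0.000124) and 1.42 ± 0.33 for Vamp7 (adjusted p = 0.0041), where 35.4% of features were called in either direction. Above E14.5 it stood by 2.41 ± 0.29 for Tmlhe (adjusted p = 1.2e-05) and 1.40 ± 0.33 for Vamp7 (adjusted p = 0.00273), with 49.6% of features called in either direction; with the slide as a block the values were 1.54 (adjusted p = 0.0169; range over its alternatives 6.88e-07 to 0.0169) and 0.53 (adjusted p = 0.476; range 0.000593 to 0.476). Against the single E17.5 array on the same slide, the difference was 1.40 for Tmlhe (adjusted p = 0.0256; range over its alternatives 1.06e-05 to 0.0256). It was 0.83 for Vamp7, which was then not called (adjusted p = 0.0818; range 0.000761 to 0.151). These within-slide values rest on 1 array at E17.5, assumed to vary like the other groups.

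The difference between both genes within an array needs no scaling between arrays, so it shows whether their changes were unequal. As log2 signal of Vamp7 minus log2 signal of Tmlhe it was 4.14 ± 0.56 (SD, n = 3) at E12.5, 3.96 ± 0.24 at E14.5, 3.51 ± 0.22 at E17.5, 2.65 ± 0.19 in neonatal and 2.96 ± 0.17 in adult liver. From E17.5 to neonatal liver it fell from 3.29, 3.73 and 3.52 to 2.43, 2.74 and 2.78, a difference of −0.86 ± 0.17 (SE) without overlap. The exact two-sided permutation test gave p = 0.1, the smallest value that 3 arrays against 3 allow. E17.5 replicate 3, which was the highest E17.5 array for each gene alone, lay between the other E17.5 arrays on this measure and above all neonatal arrays of its own slide. Relative to Vamp7, Tmlhe was thus higher on every neonatal array than on any E17.5 array, of which slide 2 held 1. How many other pairs of features separate likewise at this step was not counted. An effect of the slide on 1 of the probes alone would not cancel within an array and was not tested.

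The adult arrays, at 2.89, 3.15 and 2.83, lay above the neonatal ones by 0.30 ± 0.15 (SE; exact permutation p = 0.1, the smallest possible). They lay below those of E12.5 by 1.18 ± 0.34 (SE) (again p = 0.1 by the exact test). The fetal steps, −0.17 ± 0.35 and −0.45 ± 0.19 (SE), had overlapping arrays and exact permutation p of 0.8 and 0.2. With normexp background correction the E17.5 arrays (3.08 to 3.46) no longer overlapped those of E14.5 (3.56 to 3.94; exact permutation p = 0.1, the smallest possible), so that overlap depended on the background correction. This exact test of 3 arrays against 3 cannot go below 0.1 in any of the 5 comparisons.

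**Figure D3:**
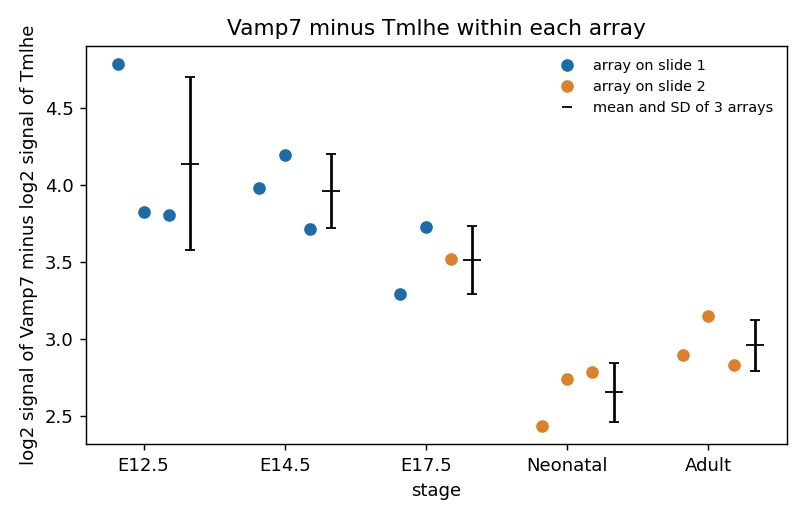
Log2 signal of Vamp7 minus log2 signal of Tmlhe within each array, by stage in replicate order, coloured by slide, with the mean and SD of the 3 arrays beside them. All fetal arrays lie at or above 3.29 and all neonatal and adult arrays at or below 3.15, and E17.5 replicate 3 on slide 2 (3.52) lies with the fetal arrays.

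In the RefSeq gene table (assembly GRCm38.p6, used for names and neighbours only) Vamp7, Spry3 and Tmlhe follow each other as protein-coding genes listed under chromosome X. Spry3, the gene listed between the members, encodes a Sprouty protein, a family that restrains receptor tyrosine kinase signalling. Its probe (NM_001030293) was dim: it was well above background on all 3 arrays at E12.5 and at E14.5, on 2 at E17.5, and on 1 each in neonatal and adult liver. Signals were 26.1 to 38.6 at E12.5 and 35.7 to 39.2 at E14.5, spread to 28.6, 57.1 and 91.2 at E17.5, and were 24.6 to 41.8 in neonatal and 13.7 to 18.9 in adult liver. The adult signals were 0.56 to 0.889 times the 95th percentile of the negative-control spots, and E17.5 replicate 1 was at 0.401 times. Before scaling, the adult signals lay below those of every earlier array, so no rise like that of Tmlhe and Vamp7 was measured. On the scaled level the adult arrays, at −3.61 to −3.03, overlapped those of E12.5, E17.5 and neonatal liver. Adult minus E12.5 was −0.54 on that level (95% confidence interval −1.48 to 0.41, limma adjusted p = 0.327, not called). Adult minus E17.5 was −1.31 (limma adjusted p = 0.0321, called), where 35.4% of features were called in either direction. Adult liver was too close to background for a fall, or its size, to be read from these values.

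**Figure D4:**
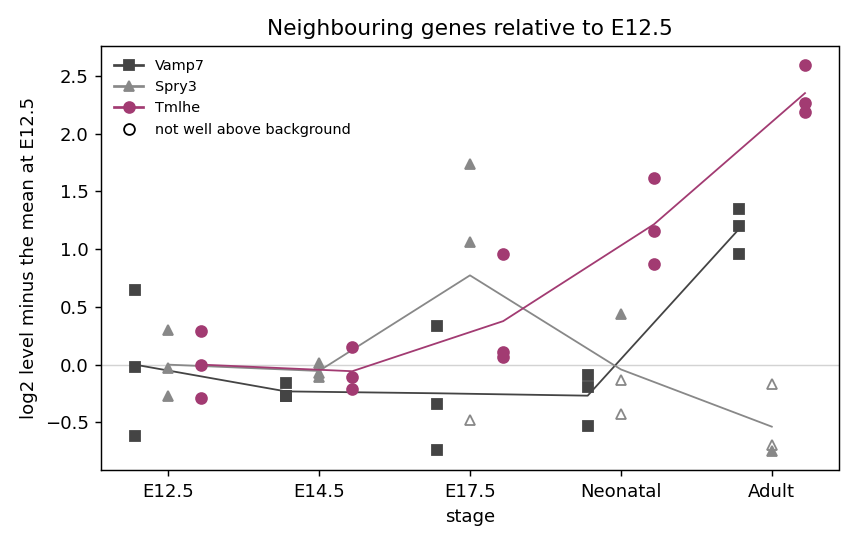
Scaled log2 level of Vamp7, Spry3 and Tmlhe on each array, minus the gene's own mean at E12.5, by stage; lines join stage means and open symbols mark arrays on which the probe was not well above background. In adult liver Tmlhe (mean 2.35) and Vamp7 (1.17) lie above their E12.5 means on all 3 arrays. The adult points of Spry3 lie below its E12.5 mean, but 2 of the 3 were not well above background. Whether Spry3 fell, and by how much, cannot be read from them.

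Of 23 genes listed for carnitine synthesis and transport and mitochondrial fatty acid oxidation, 1 could be named on the array, Tmlhe itself. Of 28 genes for SNARE fusion and VAMP7 partners, 1 could be named, Vamp7 itself. The later enzymes of carnitine synthesis, the carnitine palmitoyltransferases and the syntaxin partners of VAMP7 are therefore not described here. No hepatocyte marker of 10 listed carried a symbol, so the tissue label was not checked on that list. Of 10 erythroid markers 1 was measured, Tfrc, the transferrin receptor through which red cell precursors take up iron. Its scaled log2 level was 8.54 to 9.50 at E12.5, 8.76 to 9.04 at E14.5, 8.10 to 9.27 at E17.5, 7.98 to 8.27 in neonatal and 5.06 to 5.81 in adult liver. Tfrc thus fell between neonatal and adult liver (−2.66 ± 0.34, SE, adjusted p = 4.67e-05), the step at which Tmlhe and Vamp7 rose. The part of a changing cell composition in either rise was not tested.

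Of 8 leukocyte markers 1 was measured, B2m, the light chain of MHC class I molecules, which nearly all nucleated cells carry. It ranged from 6.93 to 8.12 at E12.5, 7.55 to 7.75 at E14.5, 7.83 to 8.69 at E17.5, 8.65 to 8.92 in neonatal and 9.71 to 10.3 in adult liver. Its rise from neonatal to adult liver was 1.24 ± 0.32 (SE, adjusted p = 0.0107). Of 8 bile duct and pancreas markers 1 was measured, the amylase gene Amy2a5. It was at −5.9 to −5.0 at E12.5, where 0 of 3 arrays were well above background. It then ranged from −0.81 to −0.37 at E14.5, 5.41 to 5.87 at E17.5, 5.50 to 6.34 in neonatal and 1.97 to 2.54 in adult liver. Its fall from neonatal to adult liver was 3.77 ± 0.30 on the log2 scale (SE, adjusted p = 5.35e-07).

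Among the other 74 tested genes with a symbol, the pattern of Tmlhe over 15 arrays was most like that of B2m (Pearson r = 0.93). Gk, glycerol kinase (0.93), B020031M17Rik (0.91), the vomeronasal receptor gene Vmn1r157 (0.89) and the histone gene H2ac18 (0.87) came next. For Vamp7 the closest were Gm13305 (0.77), Gapdh, a glycolytic enzyme (0.77), Tmlhe (0.76), B2m (0.76) and Hhipl2 (0.74). These genes moved by different amounts: from neonatal to adult liver B2m rose by 1.24, and Gapdh differed by 0.30. Vamp7 held rank 9 among the genes most like Tmlhe, and Tmlhe rank 3 among those most like Vamp7. These correlations describe arrays that share stages and slides and are given without a p.

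Probes named for lincRNAs, long noncoding RNAs from between genes, came closer. Of 2530 tested, MM9LINCRNAEXON11449+, MM9LINCRNAEXON11138+ and MM9LINCRNAEXON11481- followed Tmlhe at r of 0.97, 0.96 and 0.96, with Adult minus E12.5 differences of 5.12, 3.11 and 3.49. MM9LINCRNAEXON10822+, MM9LINCRNAEXON10380- and MM9LINCRNAEXON11979+ followed Vamp7 at 0.94, 0.89 and 0.89, with differences of 0.84, 0.86 and 0.99. All were picked as the highest of many correlations, which by itself raises them.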

How the data were processed

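Liver RNA of 5 stages, 3 arrays each, was hybridised in 1 colour (Cy3) to Agilent arrays whose lincRNA probes are named for mm9. Per the labels' protocols, RNA was extracted with TRIzol, depleted of ribosomal RNA and labelled by random priming. Per the file headers, Agilent Feature Extraction 11.0.1.1 made the spot intensity values, background-subtracted and spatially detrended within the array and not scaled between arrays. A multiplicative detrend was applied to 6 of 15 arrays, those of slide 2 except adult replicate 2, and its part in the slide and adult differences was not tested. The submitters' processing notes name software version 10.7.3.1. The authors' deposited value table holds log2 values with unstated scaling, and is used as an alternative. Its probe order matched the scanner values on each array (Spearman 1), and its column medians were 7.80 to 7.89. Flag columns (other) were used as deposited.

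Control, negative-control and outlier-marked spots were left out and spots of a probe averaged. The main values are log2 signal minus the array's 75th percentile. Of 123 RefSeq probes 116 matched a symbol. limma 3.58.1 in R 4.3.3 fitted 1 mean per stage over 15 arrays without a block, two-sided, with Benjamini-Hochberg adjustment over 37357 features; the fit was tested on simulated data. Signal over background stands for depth, and the number of arrays limits precision. The normexp alternative used the median spot signal, the column at hand, with an offset of 50. Alternatives were other scalings and backgrounds, no filter, slide and replicate blocks, single slides and leaving out each array.

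Named genes were the members, the 5 genes and 3 lincRNA probes of highest Pearson r with each, listed genes and neighbours. Members and lists were chosen with earlier results of these data known. The comparisons beyond neighbouring stages and Adult minus E12.5 were added after the data were seen.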

Additional observations from a re-analysis of the deposited data

How the results depend on the processing

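The rises of Tmlhe and Vamp7 from neonatal to adult liver kept their direction under every alternative, and the one lost call was that of Tmlhe without neonatal replicate 2 (leaving out arrays gave 0.96 to 1.34). The slide block could not change the size of either rise, as all these arrays lay on slide 2. Tmlhe from E17.5 to neonatal liver became called with normexp (0.72) and in the authors' table (0.78); leaving out arrays gave 0.64 to 1.13. Vamp7 from E12.5 to adult lost its call with the slide as a block (0.29). Uncalled differences near 0 changed sign: Tmlhe E14.5 minus E12.5 was 0.01 scaled over probes detected on all arrays. Vamp7 E17.5 minus E14.5 was 0.05 after quantile normalization, 0.02 over detected probes and 0.04 in the authors' table, and Neonatal minus E17.5 was 0.01 with normexp. Leaving out arrays gave −0.20 to 0.09 for Tmlhe and −0.54 to 0.09 for Vamp7 at E14.5 minus E12.5. For Vamp7 it gave −0.31 to 0.23 at E17.5 minus E14.5, −0.27 to 0.27 at Neonatal minus E17.5, −0.56 to 0.08 at E17.5 minus E12.5, −0.58 to 0.05 at Neonatal minus E12.5 and −0.13 to 0.09 at Neonatal minus E14.5. The difference within arrays ranged from −0.34 to 0.15 at E14.5 minus E12.5. The cause of these moves was not tested.

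The replicate block left both adult minus neonatal differences at 1.14 (adjusted p = 0.016; range over alternatives 0.00265 to 0.0586) and 1.44 (0.01; range 0.000968 to 0.0288) and changed no other call of the members. The numbers are not known to pair samples: deviations of same-numbered arrays correlated at a median of 0.01, above 0.1 in 7 of 30 pairs. Differently numbered arrays had a median of −0.003 and were above 0.1 in 9 of 60 pairs. Counts of called features moved as follows. At E14.5 minus E12.5, 1843 were called, 3004 with normexp, 1140 without the filter and 673 to 2603 on leaving out arrays. At E17.5 minus E14.5 there were 2655, 1409 within slide 1 and 1380 to 3287 on leaving out arrays. At Neonatal minus E17.5 there were 6747, 2265 with the slide block, 2196 within slide 2 and 3611 to 13308 on leaving out arrays. With the slide block 11844 of 18978 were called at Adult minus E12.5, 5399 of 15651 at Neonatal minus E12.5, 4463 of 16060 at Neonatal minus E14.5 and 10686 of 18532 at Adult minus E14.5. Other probes of a gene could not be tried, since each had 1, and no slide held both E12.5 and adult arrays.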

Other observations

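In the authors' deposited table, whose scaling between arrays is not stated, the log2 values of Tmlhe were 10.72, 10.39 and 10.40 in adult liver and 9.82, 9.05 and 9.31 in neonatal liver. Those of Vamp7 were 13.5, 13.5 and 13.1 in adult and 12.27, 11.70 and 12.04 in neonatal liver. For either gene the adult arrays lay above the neonatal ones, as in the scanner values. Spry3 has no row in the table as read here.

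The RefSeq gene table lists a Vamp7 pseudogene, Vamp7-ps, under chromosome 2. No probe sequence was used here, so whether the Vamp7 probe also binds a transcript of that copy was not tested.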
